A study of Mus musculus with 30 samples.

Results

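Gene expression in the whole brain of wildtype (WT) male C57BL/6N mice was compared between postnatal day 10 (P10), when neurons are still being wired and myelin is being laid down, and postnatal day 120 (P120), when the mouse is an adult. The comparison used 9 of the 30 libraries of the series, which were the 5 libraries of P10 WT mice and 4 of the 5 libraries of P120 WT mice from the vehicle arm (WT-Veh). The P120 mice had been nursed by dams that drank water with 0.2% saccharin from P3 to P21, whereas no treatment is given for the P10 mice. Age, vehicle exposure and the series of library names (1 for P10 and another for P120) therefore change together and cannot be told apart. All 9 mice are labelled as WT for Arid1b, a subunit of the BAF chromatin remodelling complex. They were siblings of heterozygous (HT) mice from crosses of HT males with WT females, so no deletion or transgene is shared by the groups. WT-Veh replicate 2 was left out because its Arid1b value of 2320.4 normalized read counts went against its label, while the other 4 WT-Veh libraries held 3171, 3036, 3224 and 3229. A gene entered the comparison when its mean over the 9 libraries was at least 10 normalized read counts, which kept 17936 of 19737 genes. Single values are listed in the order of replicates 1 to 5 at P10 and replicates 1, 3, 4 and 5 at P120, and ranges run from the lowest to the highest library of an age.

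The brain of a mouse pup at P10 still holds dividing cells, above all granule cell precursors in the outer layer of the cerebellum and oligodendrocyte precursors throughout, and its new neurons express genes for migration, axon growth and guidance. Over the following weeks synaptic receptors and ion channels exchange juvenile for adult subunits, oligodendrocytes wrap axons, extracellular matrix closes around inhibitory neurons, and glia take up their mature metabolic roles. A bulk library reads all of these cells together, so that fewer cells of a type and less RNA per cell cannot be told apart.

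The markers fitted the tissue label. The neuronal genes Snap25 and Rbfox3, the astrocyte gene Slc1a2, the oligodendrocyte gene Mog, the microglial gene Cx3cr1 and the endothelial gene Cldn5 were present in each of the 9 libraries, the lowest value being 729 normalized read counts (Cx3cr1). Y-linked Ddx3y, Uty and Eif2s3y were present in all 9, with Ddx3y between 586 and 1444, and Xist did not exceed 17.7. The sum of the normalized read counts was 31578614 to 32445810 at P10 and 33424948 to 35542279 at P120. Pearson correlations of log2 values between libraries were 0.984 to 0.991 within P10, 0.973 to 0.986 within WT-Veh and 0.936 to 0.959 between the ages. The median SD of a gene within its group was 0.11 at P10 and 0.22 at P120 on the log2 scale. Genes of some brain regions were not at the same level in all libraries. WT-Veh replicate 1 was low in hindbrain genes, with 46.5 counts of Hoxb5 against 165 to 240.4 in the other WT-Veh libraries. It had 262 counts of the granule cell gene Gabra6 against 1988 to 3180.0 in the others. P10 replicate 1 had 23.1 counts of Hoxb5 against 116 to 152. WT-Veh replicate 3 was high in pituitary genes, with 599.6 counts of growth hormone (Gh) against 0 to 32.8 in the other 8 libraries. The olfactory bulb gene Tbx21, named after its values were seen, was lower at P120, with 101, 68.3, 87.6, 47.3 and 64.2 at P10 and 32.3, 0, 0.86 and 14.04 at P120. Its log2 fold change of -3.71 became -4.57 without WT-Veh replicate 1 and -2.89 without replicate 3.

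At P120, 4998 genes were higher and 5058 were lower than at P10 (limma, Benjamini-Hochberg adjusted p below 0.05), which are 27.9% and 28.2% of the genes tested, and the median log2 fold change of all genes was -0.02. A change of at least 2-fold was found for 1133 higher genes (6.32%) and 1398 lower genes (7.79%). The values of the 2 groups did not overlap for 4234 higher genes (23.6%) and 4318 lower genes (24.1%). Scaling each library to an equal total instead moved the median to -0.12 and the split to 4072 higher and 6241 lower genes. Counts of gene lists given hereafter are to be read against these shares.

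**Figure D1:**
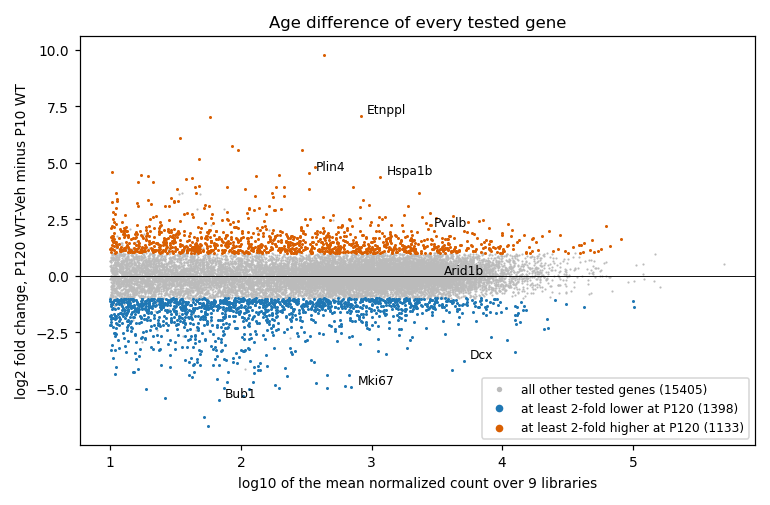
Mean normalized read count over the 9 libraries (log10, horizontal axis) against the log2 fold change of P120 WT-Veh over P10 WT (vertical axis) for 17936 genes, with genes at least 2-fold higher in orange (1133) and at least 2-fold lower in blue (1398). Genes listed at 0 in every library of an age (8 at each age) sit where the pseudocount of 1 puts them, and Arid1b lies at -0.04.

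Genes of cell division had the lowest median of 40 gene lists. Of 79 proliferation genes tested, 72 were lower at P120, 4 were higher and 3 did not pass, with 58 at least 2-fold lower and a median log2 fold change of -2.03. In normalized read counts, Mki67, which marks cycling cells, had 1251, 1153, 1206, 1543 and 988 at P10 and 66.6, 22.4, 33.95 and 45.4 at P120 (log2 fold change -4.93, SE 0.25, adjusted p = 5.1e-08). All 5 P10 libraries were far above all 4 P120 libraries. Top2a, the topoisomerase that untangles DNA before mitosis, had 1165, 1005, 1087, 1307 and 874 at P10 and 57.9, 33.1, 16.8 and 46.6 at P120 (log2 fold change -4.900, SE 0.28, adjusted p = 1.05e-07). Cdk1, the kinase that drives entry into mitosis, had 203, 195, 271, 253 and 177 at P10 and 10.7, 9.12, 10.8 and 9.09 at P120 (log2 fold change -4.32, SE 0.17, adjusted p = 1.21e-08). Its partner, cyclin B1 (Ccnb1), had 211, 246, 261, 305 and 183 at P10 and 9.89, 9.47, 21.7 and 10.2 at P120 (log2 fold change -4.19, SE 0.25, adjusted p = 1.14e-07), with WT-Veh replicate 4 above the other 3. None of the 4 genes overlapped between the ages. The spindle checkpoint kinase Bub1 had 92.7 to 143 at P10 and 0 to 4.45 at P120 (log2 fold change -5.496, SE 0.44, adjusted p = 1.18e-06). The log2 fold changes of the kinetochore scaffold Knl1, the centromere protein Cenpf, the microtubule depolymerase Kif2c and the ubiquitin-conjugating enzyme Ube2c were -4.96, -4.42, -4.68 and -4.71. The member that rose most was Anln (1.82), an actin-binding protein of the cleavage furrow that is also a component of myelin and stands in the myelin list.

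Promoters of this list are shown because its genes moved together. They were taken from the RefSeq windows of 250 bases before to 50 bases after each gene start (GRCm38.p6), and the 250 bases before the start are printed 5′ to 3′ on the gene's strand for the 4 example genes. Capitals mark matches on either strand to the cell cycle genes homology region (CHR, TTTGAA) and to the CCAAT box (CCAAT), which do not overlap each other here.
Mki67, chr7:135716380-135716629, minus strand: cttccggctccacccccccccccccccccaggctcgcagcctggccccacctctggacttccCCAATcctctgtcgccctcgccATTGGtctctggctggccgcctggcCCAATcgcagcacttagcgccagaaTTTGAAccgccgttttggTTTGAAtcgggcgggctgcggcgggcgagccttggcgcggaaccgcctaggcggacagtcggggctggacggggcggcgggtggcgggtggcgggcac
Top2a, chr11:99024190-99024439, minus strand: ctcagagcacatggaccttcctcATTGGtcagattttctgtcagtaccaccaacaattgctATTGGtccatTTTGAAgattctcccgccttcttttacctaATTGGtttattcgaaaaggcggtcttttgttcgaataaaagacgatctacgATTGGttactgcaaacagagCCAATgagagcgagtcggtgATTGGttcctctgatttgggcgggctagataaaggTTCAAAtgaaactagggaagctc
Cdk1, chr10:69352913-69353162, minus strand: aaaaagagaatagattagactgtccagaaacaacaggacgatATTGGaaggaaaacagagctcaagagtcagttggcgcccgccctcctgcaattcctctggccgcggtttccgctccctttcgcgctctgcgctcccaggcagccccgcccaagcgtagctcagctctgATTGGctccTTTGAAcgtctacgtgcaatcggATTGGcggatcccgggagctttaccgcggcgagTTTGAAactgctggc
Ccnb1, chr13:100786487-100786736, minus strand: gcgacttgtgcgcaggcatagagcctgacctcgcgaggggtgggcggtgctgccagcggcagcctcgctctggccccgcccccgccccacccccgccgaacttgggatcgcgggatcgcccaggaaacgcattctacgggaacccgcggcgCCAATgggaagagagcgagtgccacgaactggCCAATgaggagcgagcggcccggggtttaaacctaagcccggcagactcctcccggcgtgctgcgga
The CHR letters occurred 2 times each before Mki67, Top2a and Cdk1 and not before Ccnb1, while CCAAT occurred 3, 6, 3 and 2 times in the same order. Windows were matched by symbol for 65 of the 79 list genes. Of these, 34 (52.3%) held the CHR letters, 46 (70.8%) the CCAAT letters and 30 (46.2%) both. Over the first window of all 27025 genes the shares were 18.1%, 37.9% and 7.12%, and over the 12691 tested genes with a window 12.2%, 38.3% and 5.14%. A match describes letters in the window and not a bound site.

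Most immature neuron genes fell. Of 42 tested, 35 were lower at P120 and the other 7 did not pass, with 24 at least 2-fold lower and a median of -1.17. Doublecortin (Dcx), a microtubule protein of migrating neurons, had 8547, 8536, 8670.4, 10583 and 6735 at P10 and 1285, 379.9, 460.0 and 677 at P120 (log2 fold change -3.77, SE 0.28, adjusted p = 7.41e-07). The transcription factor Sox11, which acts in immature neurons, had 1716 to 2266 at P10 and 395 to 590.2 at P120 (-2.03), and its relative Sox4 had 2835 to 3409 at P10 and 669.9 to 862 at P120 (-2.03). Nestin (Nes), an intermediate filament of progenitors and vessels, changed less, with 792 to 926 at P10 and 389 to 553 at P120 (log2 fold change -0.80, SE 0.11, adjusted p = 8.89e-05), and the smallest fall that passed was that of the transcription factor Neurod2 (-0.37). Among the 12 protein-coding genes that fell furthest were further genes of this stage. Draxin, a repulsive guidance protein, had 743, 817, 877, 919 and 639 at P10 and 35.8, 18.3, 20.9 and 24.4 at P120 (log2 fold change -4.98, SE 0.18, adjusted p = 7.67e-09). Nhlh1, a transcription factor of newborn neurons, had 254 to 374 at P10 and 7.102 to 14.4 at P120 (log2 fold change -4.85, SE 0.20, adjusted p = 1.38e-08). Igfbpl1, a relative of the insulin-like growth factor binding proteins, had 867 to 1335 at P10 and 42.005 to 85.6 at P120 (log2 fold change -4.39, SE 0.20, adjusted p = 2.21e-08).

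Of 20 genes of granule cell precursors of the cerebellum, 12 fell, 3 rose and 5 did not pass, with a median of -1.14. Without WT-Veh replicate 1, 5 rose and 12 fell. Atoh1, the transcription factor that defines these precursors, had 49.6, 32.8, 27.6, 43.2 and 15.5 at P10 and was listed at 0 in all 4 P120 libraries. Barhl1 had 633 to 936 at P10 and 67.02 to 260.0 at P120 (-2.34 on the log2 scale). Mycn, the effector of sonic hedgehog in these cells, had 664 to 934 at P10 and 215 to 320.0 at P120 (-1.59). Gli1 and Ptch1, which are read-outs of hedgehog signalling, went the other way. Gli1 had 151 to 245 at P10 and 229 to 348 at P120 (log2 fold change 0.63, SE 0.16, adjusted p = 0.00578) and Ptch1 had 2597 to 2949 at P10 and 3459.6 to 5206 at P120 (log2 fold change 0.72, SE 0.11, adjusted p = 0.000167). The precursor list is therefore not of 1 direction, and its hedgehog targets are also expressed outside granule cells.

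Of 26 genes of mature granule and Purkinje cells, 9 rose, 1 fell and 16 did not pass, but without WT-Veh replicate 1 the counts were 18 and 2. Itpr1, the calcium release channel of Purkinje cells, had 9021, 9884, 9532, 8469 and 11931 at P10 and 24670.4, 44935, 42903 and 44522 at P120 (log2 fold change 1.98, SE 0.17, adjusted p = 1.85e-06). Cbln3, a granule cell secreted protein, had 1489, 1812, 1676, 1147 and 2521 at P10 and 1644, 9612, 9128 and 6895 at P120, with a log2 fold change of 1.75 that became 2.34 without replicate 1. Gabra6, the granule cell GABA-A subunit, had 872, 1004, 958, 696 and 1395 at P10 and 262, 1988, 2401 and 3180.0 at P120 (log2 fold change 0.56, SE 0.58, adjusted p = 0.43), and without replicate 1 its log2 fold change was 1.37 (adjusted p = 0.000137). Pcp2 of Purkinje cells had 1013, 1029, 1048, 888 and 1124 at P10 and 694, 2335, 2611 and 2067 at P120 (log2 fold change 0.76, SE 0.31, adjusted p = 0.0546), and 1.19 without replicate 1 (adjusted p = 1.42e-06). Calb1 had 4089.6, 4638, 4610.0, 4407 and 4926 at P10 and 4233, 6637, 9454 and 8420.4 at P120 (log2 fold change 0.60, SE 0.19, adjusted p = 0.0154, call lost without WT-Veh replicate 4 or 5, at 0.45 to 0.51). Neurod1, a transcription factor of young granule neurons, was lower in all 4 P120 libraries, with 3818, 3991, 4089.6, 3853 and 4111 at P10 and 554, 2022, 2107 and 2219.8 at P120 (log2 fold change -1.39, SE 0.33, adjusted p = 0.00382). WT-Veh replicate 1, which was low in hindbrain genes, had the lowest P120 value of each gene named here. The range of the mean log2 level of the list was 11.2 to 11.5 at P10 and 10.8 to 12.2 at P120. P10 replicate 1, also low in Hoxb5, was at 11.25, within the range of the other P10 libraries. The part of the hindbrain level in these values was not tested.

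**Figure D2:**
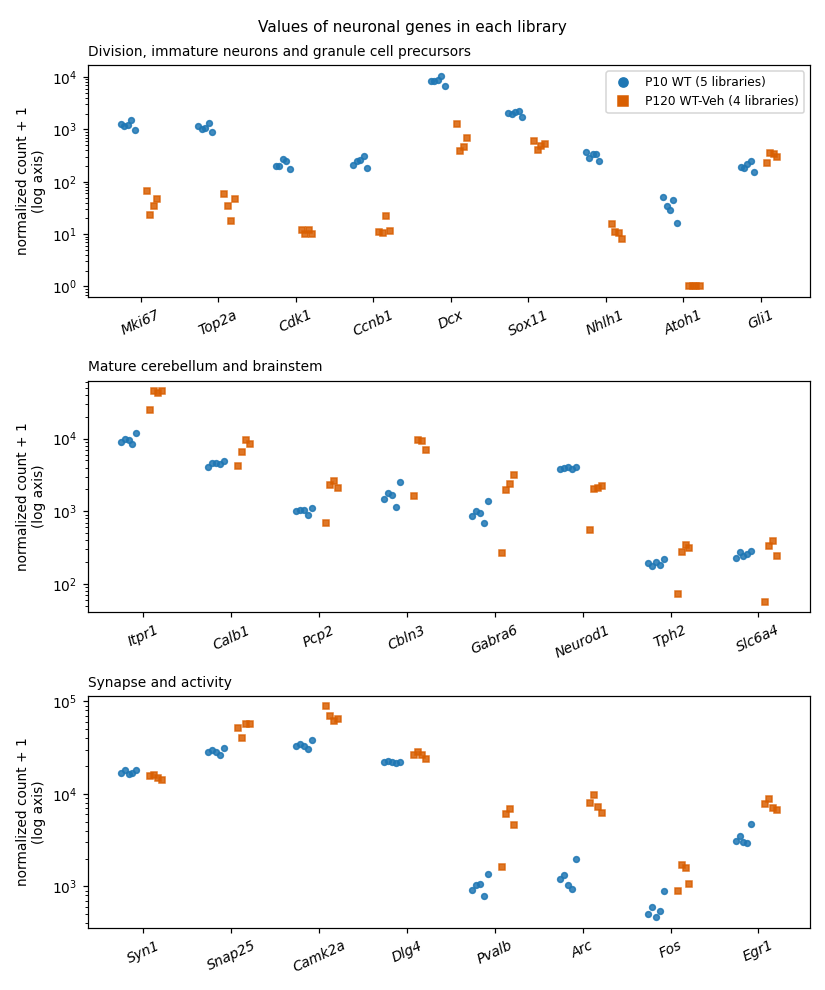
Normalized read counts plus 1 (vertical log axis) of named neuronal genes in each library, with circles for the 5 P10 WT libraries and squares for the 4 P120 WT-Veh libraries. Mki67, Top2a, Cdk1 and Dcx separate the ages without overlap, while in the middle panel WT-Veh replicate 1 (the leftmost square of each gene) lies below the other 3 for each of the 8 genes.

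Axon growth and guidance genes were lower on the whole, with 52 of 76 lower, 10 higher and a median of -0.51. Gap43, a growth cone phosphoprotein, had 18881, 18553, 17913, 21134 and 14842 at P10 and 5684, 5734, 5434 and 5164 at P120 (log2 fold change -1.72, SE 0.09, adjusted p = 6.04e-08). The repellent Sema3a had 803 to 876 at P10 and 258 to 523 at P120 and the Slit receptor Robo2 had 5648 to 6663 at P10 and 1337 to 3802 at P120. The netrin receptor Dcc had 1519 to 1863 at P10 and 384 to 786 at P120. All 3 were lower at P120 without overlap (log2 fold changes -1.08, -1.47 and -1.55). Unc5a, a netrin receptor that mediates repulsion, was the member that rose most, with 2195 to 2323 at P10 and 4779 to 5828 at P120 (log2 fold change 1.24, SE 0.07, adjusted p = 6.63e-08), and the ephrin ligand Efna4 fell most (-1.89) from a low level. Neuronal cytoskeleton genes were lower for 23 of 36 and higher for 6. Without WT-Veh replicate 1 the counts were 22 and 10. The neurofilament genes did not pass. Nefh had 4076, 5172, 4976, 4097 and 5914 at P10 and 3243, 7702, 6682 and 6419 at P120 (adjusted p = 0.335). Nefm had 10999 to 14359 at P10 and 8182 to 12531 at P120 (adjusted p = 0.11, passing without WT-Veh replicate 5, at -0.32) and Nefl had 17957 to 21185 at P10 and 14263 to 24332 at P120 (adjusted p = 0.797, passing without WT-Veh replicate 1, at 0.21). Nefh was lowest in WT-Veh replicate 1, and without this library its log2 fold change was 0.53 (adjusted p = 0.00295). Tuba8 rose most in the list (0.78).

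Matrix genes fell too. Of 40 collagen genes 24 were lower and 5 were higher (median -0.59). Type I and III collagens, which fibroblasts of the meninges and vessels make, were among them. Col3a1 had 1724 to 2986 at P10 and 146 to 224 at P120 (log2 fold change -3.48, SE 0.17, adjusted p = 3.22e-08). Col1a1 had 12759, 1908, 2505, 2046 and 1731 at P10 and 592, 568, 659 and 539 at P120 (log2 fold change -2.32, SE 0.48, adjusted p = 0.00144), with P10 replicate 1 far above the other 4 P10 libraries, and -1.79 without it. The basement membrane collagen Col4a1 had 6482 to 7558 at P10 and 1731 to 2150.2 at P120 (log2 fold change -1.85, SE 0.07, adjusted p = 1.34e-08), and the cartilage collagen Col2a1 fell by 1.41 on the log2 scale. Col8a2 rose most (1.096). The leptomeningeal list held 9 higher and 6 lower of 20 genes. Decorin (Dcn) had 576 to 836 at P10 and 388 to 600.0 at P120 (-0.37, call lost without P10 replicate 1, 3 or 4 or WT-Veh replicate 3 or 4, at -0.39 to -0.24). The GABA transporter Slc6a13 had 307 to 371 at P10 and 464 to 618 at P120 (0.70), and Aldh1a1, a retinaldehyde dehydrogenase, had 833 to 1228 at P10 and 1806 to 4273 at P120 (1.69). Lum fell by 0.74, call lost without WT-Veh replicate 1 or 3, at -0.66 to -0.61. Meningeal genes were highest in P10 replicate 1, whose mean log2 level over the list was 8.84 against 8.26 to 8.304 in the other 4 P10 libraries.

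Perineuronal nets are lattices of chondroitin sulphate proteoglycans, hyaluronan and link proteins around inhibitory neurons. Of 20 genes of nets and their enzymes, 12 fell and 2 rose. The juvenile proteoglycan neurocan (Ncan) had 16996 to 20487 at P10 and 5286 to 7001 at P120 (-1.65 on the log2 scale). Versican (Vcan), of the same family, had 2028 to 2799.6 at P10 and 652 to 979.9 at P120 (-1.63). Tenascin C (Tnc), a matrix protein of progenitor zones, had 1769.8 to 2501 at P10 and 311 to 517 at P120 (-2.297). Brevican (Bcan), a mature lectican, had 10302 to 11529 at P10 and 10486 to 12645 at P120 and did not pass (adjusted p = 0.237). Aggrecan (Acan) had 197 to 272 at P10 and 215 to 385 at P120 (adjusted p = 0.154), and 0.42 without WT-Veh replicate 1 (adjusted p = 0.0404). The link protein genes split. Hapln1 had 1465, 1443, 1694, 1465 and 1813 at P10 and 539, 172, 396 and 539 at P120 (log2 fold change -2.06, SE 0.28, adjusted p = 6.58e-05), each P120 library being below each P10 library. In contrast, Hapln4 had 875, 1072, 899.8, 733 and 1403 at P10 and 4504, 6557, 6487 and 5276 at P120 (log2 fold change 2.54, SE 0.17, adjusted p = 3.33e-07). Hapln2, the link protein of nodes of Ranvier, had 98.8 to 248 at P10 and 1239 to 1903 at P120 (log2 fold change 3.36, SE 0.25, adjusted p = 7.55e-07).

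To ask whether juvenile gave way to adult subunits within gene families, the log2 ratio of a later to an earlier member was taken in each library for 16 pairs. The groups did not overlap for 11 pairs, in each of which the ratio was higher at P120. Each had p = 0.0159 (exact two-sided permutation test, unadjusted), the smallest p this design allows. Any pair without overlap reaches this p, so it adds nothing to the count. The pair members were chosen with earlier results of these data known, so the count describes them and is not a test. For comparison, the values of 47.7% of all genes did not overlap between the ages, with 23.6% higher at P120. These shares are of single genes and not of ratios, for which no share was computed. The ratio Grin2a/Grin2b of the NMDA receptor subunits was -2.55 ± 0.18 at P10 (SD, n = 5) and -1.13 ± 0.15 at P120 (SD, n = 4), which is a 2.67-fold shift. Grin2b fell, with 18629, 18704, 18389, 20279 and 17889 at P10 and 13074, 7808, 9734 and 10723 at P120 (log2 fold change -0.88, SE 0.12, adjusted p = 6.49e-05). Grin2a rose, with a narrow overlap, at 3164, 3316, 3175, 2874 and 3551 at P10 and 5486, 3247, 4859 and 5384 at P120 (log2 fold change 0.53, SE 0.14, adjusted p = 0.00578). Per kilobase of the longest annotated transcript, the mean level of Grin2b was 780.5 at P10 and 429.5 at P120, and that of Grin2a 219.8 and 324, so that Grin2b still stood above Grin2a at P120. The ratio Grin2c/Grin2d, whose later member is a subunit of cerebellar granule cells and astrocytes, was -0.72 ± 0.45 at P10 (SD, n = 5) and 1.79 ± 0.20 at P120 (SD, n = 4) (5.69-fold). In the full list of 18 ionotropic glutamate receptor genes, 6 rose and 6 fell. Gria1 rose (0.34), Gria2 had 15695 to 16989.5 at P10 and 6086 to 18962 at P120 and did not pass (adjusted p = 0.0633, passing without WT-Veh replicate 1, at -0.84), and Grin3a, a juvenile subunit, fell most (-1.43).

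Among inhibitory receptors, the GABA-A receptor subunit gene Gabra2 fell, with 3836 to 4048 at P10 and 1268 to 3132 at P120 (log2 fold change -0.91, SE 0.19, adjusted p = 0.00163). Glra1/Glra2, the adult and fetal glycine receptor subunits, was -2.697 ± 0.52 at P10 (SD, n = 5) and -0.17 ± 1.25 at P120 (SD, n = 4), with WT-Veh replicate 1 just above the P10 libraries. Glra2 fell (-2.299) and Glra1 did not pass (0.23, adjusted p = 0.632, passing without WT-Veh replicate 1, at 0.69). The chloride exporter to importer ratio Slc12a5/Slc12a2 was 2.78 ± 0.13 at P10 (SD, n = 5) and 3.23 ± 0.36 at P120 (SD, n = 4). The groups overlapped (exact permutation p = 0.0476). Slc12a5, which keeps chloride low in mature neurons, rose by itself, with 17696 to 18889 at P10 and 28350.2 to 34945 at P120 (log2 fold change 0.80, SE 0.07, adjusted p = 2.43e-06). Gabrd, of extrasynaptic receptors, was the member that rose most among 30 GABA and glycine receptor genes (1.297), of which 6 rose and 12 fell. Without WT-Veh replicate 1 the counts were 10 and 16.

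For sodium channels, Scn1a/Scn3a was 0.35 ± 0.25 at P10 (SD, n = 5) and 2.24 ± 0.58 at P120 (SD, n = 4) (3.69-fold). Scn8a/Scn2a was -0.08 ± 0.08 at P10 (SD, n = 5) and 0.81 ± 0.35 at P120 (SD, n = 4) (1.85-fold). Scn3a, the embryonic channel, had 2820.3, 2870.4, 2926, 3290.3 and 2678 at P10 and 1836, 619, 973 and 1360.4 at P120 (-1.39). Scn1a, the channel of fast-spiking interneurons, had 3390.4, 3891, 3661, 3372 and 4368 at P10 and 4829, 4150.4, 5307 and 7023 at P120 (0.49). Of 14 genes 5 rose and 6 fell, led by the beta subunit Scn4b with 1412 to 2626 at P10 and 9067 to 11324 at P120 (2.36) and by Scn11a, a low-level channel, at -1.96. Potassium channels rose more often than they fell, 28 against 18 of 60. Kcnab2, a cytosolic beta subunit, had 4642 to 5875 at P10 and 17937 to 22961 at P120 (log2 fold change 2.02, SE 0.09, adjusted p = 2.26e-08). Kcnc1, a fast delayed rectifier, had 4358 to 6331 at P10 and 8533 to 15169.5 at P120 (1.28). The axonal channels Kcna1 and Kcna2 rose by 0.79 and 0.66. Kcnj10 of astrocytes had 6667 to 9077 at P10 and 6629 to 9445 at P120 and did not pass (adjusted p = 0.281, passing without WT-Veh replicate 1, at 0.27), and Kcna3 fell most (-1.09). Calcium channels leaned the other way, with 4 higher and 11 lower of 23. Cacna1b, the N-type channel of young terminals, fell by 0.69 and Cacna1a, the P/Q-type channel, by 0.31. The L-type channel Cacna1d fell by 0.30 (call lost without P10 replicate 1, 2, 3, 4 or 5 or WT-Veh replicate 3, 4 or 5, at -0.32 to -0.23). The T-type channel Cacna1i rose by 0.41. Cacng4, an AMPA receptor auxiliary subunit, fell most (-1.44). Cacna1c did not pass (adjusted p = 0.127, passing without WT-Veh replicate 1, at -0.25).

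At terminals, Slc17a7/Slc17a6, the vesicular glutamate transporters VGLUT1 and VGLUT2, was 2.59 ± 0.15 at P10 (SD, n = 5) and 4.16 ± 0.46 at P120 (SD, n = 4) (2.96-fold), with a fall of Slc17a6 (-1.001) and a rise of Slc17a7 (0.56). Vamp1/Vamp2 was -2.82 ± 0.24 at P10 (SD, n = 5) and -1.21 ± 0.50 at P120 (SD, n = 4) (3.05-fold), and its lowest WT-Veh value came from replicate 1. Syt2/Syt4 was -0.66 ± 0.29 at P10 (SD, n = 5) and 0.47 ± 0.71 at P120 (SD, n = 4), and the groups overlapped through replicate 1 (exact permutation p = 0.0317). The scaffold ratio Dlg4/Dlg3 (PSD-95 over SAP102) was 1.87 ± 0.03 at P10 (SD, n = 5) and 2.26 ± 0.13 at P120 (SD, n = 4) (1.31-fold), a small shift with a small spread. Of all pairs the link protein ratio Hapln4/Hapln1 moved most, at -0.69 ± 0.28 at P10 (SD, n = 5) and 3.91 ± 0.98 at P120 (SD, n = 4) (24.2-fold). Acan/Ncan was -6.37 ± 0.22 at P10 (SD, n = 5) and -4.42 ± 0.52 at P120 (SD, n = 4) (3.86-fold). The tubulin ratio Tubb4a/Tubb2b was -0.37 ± 0.45 at P10 (SD, n = 5) and 2.35 ± 0.04 at P120 (SD, n = 4) (6.56-fold). Tubb2b, a tubulin of growing neurites, had 22274 to 44673 at P10 and 5675 to 7193 at P120 (log2 fold change -2.35, SE 0.16, adjusted p = 3.12e-07). Tubb4a, a tubulin of oligodendrocytes and mature neurons, rose by 0.36. Nefh/Ina overlapped (-0.79 ± 0.22 at P10 (SD, n = 5) and -0.43 ± 0.37 at P120 (SD, n = 4), exact permutation p = 0.127). Of 2 pairs of BAF subunits neither shifted towards the neuronal member. Actl6b/Actl6a was 2.79 ± 0.16 at P10 (SD, n = 5) and 2.45 ± 0.09 at P120 (SD, n = 4) (exact permutation p = 0.0317, groups overlapping), lower at P120. Dpf1/Phf10 was -0.17 ± 0.08 at P10 (SD, n = 5) and -0.09 ± 0.08 at P120 (SD, n = 4) (exact permutation p = 0.222).

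**Figure D3:**
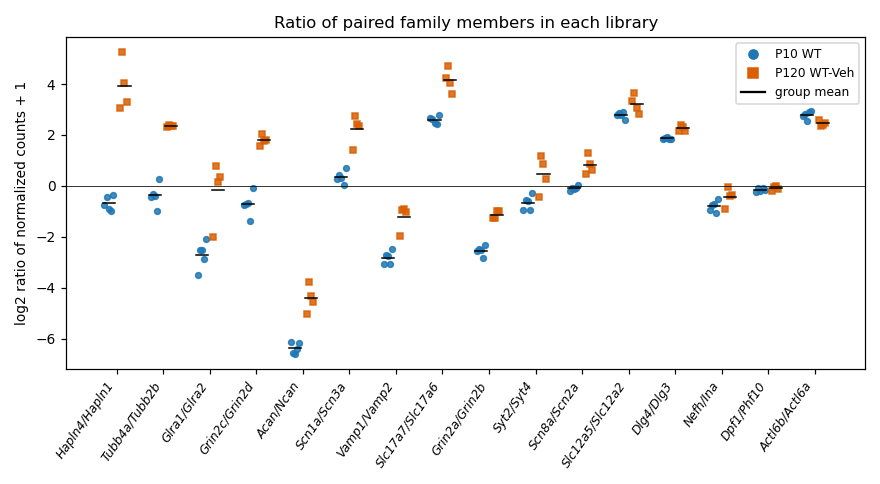
Log2 ratio of the later to the earlier member of 16 gene pairs (vertical axis, normalized read counts plus 1) in each library, with circles for P10 WT, squares for P120 WT-Veh and black bars for group means. The pairs are ordered by the difference of the means, from 4.596 for Hapln4/Hapln1 to -0.33 for Actl6b/Actl6a, and 11 do not overlap.

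Synaptic genes as a whole did not move one way. Of 65 presynaptic genes 26 rose and 20 fell (median 0.04). Snap25, a SNARE of the terminal membrane, had 26030.4 to 31425 at P10 and 39790.4 to 57283 at P120 (log2 fold change 0.82, SE 0.11, adjusted p = 4.62e-05). Synapsin 1 (Syn1) fell slightly, with 16588 to 18095 at P10 and 14149.8 to 15809 at P120 (log2 fold change -0.19, SE 0.06, adjusted p = 0.0156). The calcium sensor Syt1 had 31892 to 33651 at P10 and 27608 to 39729 at P120 and did not pass (adjusted p = 0.912). The vesicle SNARE Vamp2 had 30333 to 31659 at P10 and 24894 to 29748 at P120 (log2 fold change -0.20, SE 0.06, adjusted p = 0.0221, call lost without P10 replicate 1 or 2 or WT-Veh replicate 5, at -0.19 to -0.15). Nptx1, a secreted organizer of AMPA receptors, rose most (1.78), and Slc17a8, the transporter VGLUT3, fell most (-1.54). Of 42 postsynaptic density genes 19 rose and 11 fell (median 0.14). Camk2a, the kinase of long-term potentiation, had 33152, 34435, 32838, 30860.2 and 37983 at P10 and 88002, 69396, 60674 and 65135 at P120 (log2 fold change 1.05, SE 0.10, adjusted p = 6.07e-06). The scaffold gene Dlg4 had 21634 to 22898 at P10 and 24029.5 to 28201 at P120 (log2 fold change 0.25, SE 0.06, adjusted p = 0.00453). Shank1 had 15988 to 17733 at P10 and 15999 to 18192 at P120 (adjusted p = 0.963) and Homer1 had 2805 to 3375 at P10 and 2163 to 4829 at P120 (adjusted p = 0.361, passing without WT-Veh replicate 3, at 0.43). Nlgn1, an adhesion molecule of excitatory synapses, fell most (-0.96).

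Among interneuron genes 9 rose and 10 fell of 26. Parvalbumin (Pvalb), the calcium buffer of fast-spiking and Purkinje cells, had 908, 1033, 1056, 780.0 and 1351 at P10 and 1625, 6018, 6822 and 4662 at P120 (log2 fold change 2.06, SE 0.34, adjusted p = 0.000333), with WT-Veh replicate 1 nearest to P10, and 2.51 without it. Somatostatin (Sst) had 3601 to 3908 at P10 and 3211 to 4306 at P120 (adjusted p = 0.639) and Vip had 256 to 313 at P10 and 247 to 585 at P120 (adjusted p = 0.076, passing without WT-Veh replicate 3, at 0.66). Neuropeptide Y (Npy) had 928 to 1062 at P10 and 516 to 966 at P120 (log2 fold change -0.49, SE 0.16, adjusted p = 0.0201, call lost without WT-Veh replicate 4 or 5, at -0.41 to -0.34). Sp8, a transcription factor of migrating olfactory bulb interneurons, fell most, with 232 to 303 at P10 and 45.8 to 151 at P120 (-1.81), beside the fall of the olfactory bulb gene Tbx21.

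Activity-induced immediate early genes were higher for 22 of 29, and the other 7 did not pass (median 0.70). Arc, which acts at active synapses, had 1203, 1323, 1032, 930.4 and 1992 at P10 and 8054, 9616, 7268 and 6213 at P120 (log2 fold change 2.62, SE 0.20, adjusted p = 7.15e-07). Fos had 506, 597, 465, 537 and 893 at P10 and 885, 1693, 1589.6 and 1068 at P120 (log2 fold change 1.11, SE 0.22, adjusted p = 0.00105). The P10 values were lower in both genes, with a narrow overlap in Fos. Egr1 had 2929 to 4729.8 at P10 and 6671 to 8698 at P120 (log2 fold change 1.14, SE 0.13, adjusted p = 2.35e-05). Npas4 had 395 to 606 at P10 and 427 to 782 at P120 and did not pass (adjusted p = 0.144, passing without WT-Veh replicate 5, at 0.44), and the phosphatase gene Dusp6 rose least (0.21, call lost without P10 replicate 1, 2, 3 or 4 or WT-Veh replicate 1, at 0.16 to 0.21). Clock genes were higher for 14 of 21 and lower for 1 (median 0.87). Per2 had 855, 915, 849, 832 and 1009.5 at P10 and 2855, 3161, 2745 and 3095 at P120 (log2 fold change 1.73, SE 0.08, adjusted p = 2.21e-08). Per1 had 2010.1 to 2341 at P10 and 4744 to 5803 at P120 (log2 fold change 1.29, SE 0.07, adjusted p = 9.31e-08) and the output gene Dbp 1048 to 1246 at P10 and 2417 to 3316 at P120 (log2 fold change 1.38, SE 0.10, adjusted p = 5.09e-07). These 3 genes did not overlap between the ages. Arntl, which cycles in the opposite phase to the Per genes, had 839 to 913 at P10 and 900.3 to 1056 at P120 and did not pass (adjusted p = 0.115). The kinase gene Csnk1e fell (-0.34). The hour of collection was not given in the sources used here, and its part in these values was not tested.

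In the oligodendrocyte lineage the precursor genes fell and most myelin genes rose, but Mbp and Mog did not pass. Of 30 genes of precursors and newly formed oligodendrocytes 24 fell and 3 rose (median -0.94). Pdgfra, the growth factor receptor of precursors, had 3731, 3802, 4017, 4324 and 3491 at P10 and 1749, 1341, 1519.7 and 1478 at P120 (log2 fold change -1.35, SE 0.09, adjusted p = 2.37e-07). Cspg4, which pericytes share, had 1435 to 1597 at P10 and 1011 to 1243 at P120 (-0.40). Gpr17, which marks cells just leaving the precursor state, had 8408 to 10689 at P10 and 2181 to 2647 at P120 (-2.01). Enpp6, of newly formed oligodendrocytes, had 967 to 1379 at P10 and 243 to 456 at P120 (-1.79). The transcript 9630013A20Rik fell most (-3.75), and Gpr37, a receptor of mature oligodendrocytes, rose most (1.75). Of 40 myelin genes 26 rose, 4 fell and 10 did not pass, with 20 at least 2-fold higher (median 1.04). Myelin basic protein (Mbp) had 69838, 95323, 97057, 63929 and 123586 at P10 and 88464, 161024, 132223 and 119743 at P120 (adjusted p = 0.0585, passing without P10 replicate 5 or WT-Veh replicate 1, at 0.61 to 0.64). The surface glycoprotein gene Mog had 1199.9, 1779.8, 1715, 995 and 2245 at P10 and 1445, 1952, 1648 and 1644 at P120 (adjusted p = 0.615). The spread of both genes was wide at P10, with replicate 5 highest and replicates 1 and 4 lowest in each. Mobp, a later myelin protein, had 11462, 16327, 16284, 11056 and 22122 at P10 and 24647, 33278, 29509.9 and 31938 at P120 (log2 fold change 0.99, SE 0.18, adjusted p = 0.000664). The protease Klk6 had 20.5, 47.4, 36.97, 21.7 and 58.4 at P10 and 188, 534, 547 and 464 at P120 (log2 fold change 3.51, SE 0.37, adjusted p = 1.03e-05). Ugt8a, which makes the myelin lipid galactosylceramide, fell, with 3081 to 5620.2 at P10 and 1615 to 2284 at P120 (log2 fold change -1.07, SE 0.17, adjusted p = 0.000239).

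Cholesterol is made by the brain itself, and much of it goes into growing myelin and membranes. Of 33 genes of cholesterol synthesis and sterol regulation 23 were lower and 6 higher (median -0.50). The 6 higher genes were Srebf1, Scap, Cyp46a1, Abcg1, Apoe and Lcat. Hmgcs1, an early enzyme of the pathway, had 17674, 18769, 19229.9, 20101 and 18104 at P10 and 6129, 4991, 5624 and 5941 at P120 (log2 fold change -1.73, SE 0.07, adjusted p = 1.43e-08). Squalene epoxidase (Sqle) had 4341 to 5049 at P10 and 1731 to 2113 at P120 (log2 fold change -1.303, SE 0.07, adjusted p = 8.13e-08). Srebf1, a sterol and fatty acid regulator, rose most, with 1331 to 1833 at P10 and 2995 to 4358 at P120 (log2 fold change 1.29, SE 0.12, adjusted p = 3.21e-06).

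Etnppl, an astrocyte enzyme that breaks down phosphoethanolamine, rose most of all protein-coding genes that had a mean of at least 50, with 9.06, 16.6, 9.900, 6.95 and 31.5 at P10 and 1714, 1738, 1684 and 2200.1 at P120 (log2 fold change 7.05, SE 0.34, adjusted p = 3.39e-08). The gene spans chr3:130617448-130637521 (GRCm38). Of 37 astrocyte genes 19 rose and 4 fell (median 0.27), with Itih3, a hyaluronan-binding serum protein, at 311 to 485 at P10 and 1677 to 2830.3 at P120 (log2 fold change 2.51, SE 0.16, adjusted p = 2.15e-07). The water channel Aqp4 went against the list, with 9736, 9423, 10694, 10505 and 10034 at P10 and 3304, 2961, 4227 and 5149 at P120 (log2 fold change -1.398, SE 0.13, adjusted p = 4.92e-06). Gfap, Slc1a2 and Aldh1l1 did not pass. The filament gene Gfap had 8165 to 9831 at P10 and 6994 to 9789 at P120 (adjusted p = 0.696). The glutamate transporter Slc1a2 had 45721 to 62770.1 at P10 and 52046 to 74061 at P120 (adjusted p = 0.0531, passing without P10 replicate 5 or WT-Veh replicate 3, at 0.34 to 0.36), and Aldh1l1 had 2514 to 2683 at P10 and 2542 to 3623 at P120 (adjusted p = 0.0589, passing without WT-Veh replicate 1, at 0.30).

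Of 40 genes of microglia and brain macrophages 18 rose and 7 fell (median 0.10). The surface gene Tmem119 had 511, 349, 373, 351 and 426 at P10 and 662, 718, 636 and 617 at P120 (log2 fold change 0.72, SE 0.12, adjusted p = 0.000276). Complement C1qa had 496 to 619 at P10 and 932 to 1330.1 at P120 (log2 fold change 1.09, SE 0.11, adjusted p = 8.84e-06). The lipid receptor Trem2 had 125.56 to 165 at P10 and 297 to 513 at P120 (log2 fold change 1.38, SE 0.16, adjusted p = 2.43e-05). Igf1, a growth factor of early microglia and of neurons, fell most, with 941, 812, 916, 906 and 839 at P10 and 192, 162, 209 and 249 at P120 (log2 fold change -2.13, SE 0.12, adjusted p = 7.35e-08). The fractalkine receptor Cx3cr1 had 965 to 1241 at P10 and 729 to 1203 at P120 (adjusted p = 0.0975, passing without WT-Veh replicate 1, at -0.39). P2ry12, the purinergic receptor of resting microglia, was at -0.53 (adjusted p = 0.036, call lost without P10 replicate 1, 3 or 5 or WT-Veh replicate 3, 4 or 5, at -0.53 to -0.38). The canonical microglial markers thus did not share a direction.

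**Figure D4:**
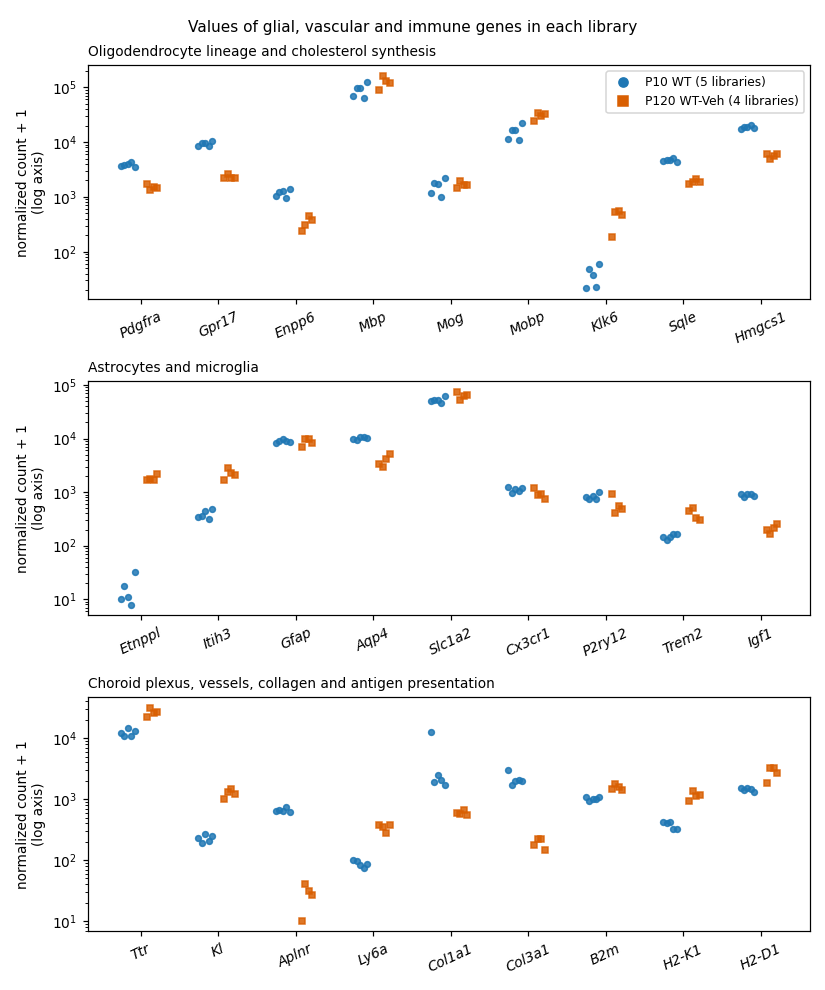
Normalized read counts plus 1 (vertical log axis) of glial, vascular and immune genes in each library, with circles for the 5 P10 WT libraries and squares for the 4 P120 WT-Veh libraries. Etnppl, Klk6, Kl and Aplnr do not overlap between the ages, Mbp, Mog and Gfap overlap, and P10 replicate 1 stands apart in Col1a1.

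Vascular genes fell more often than they rose, 20 against 9 of 39. Aplnr, the apelin receptor of sprouting endothelium, had 643, 662, 634, 732 and 622 at P10 and 9.18, 40.1, 30.3 and 25.7 at P120 (log2 fold change -4.76, SE 0.31, adjusted p = 2.73e-07). The tight junction gene Cldn5 had 2258 to 2399 at P10 and 1099 to 2039 at P120 (log2 fold change -0.60, SE 0.14, adjusted p = 0.00287) and the endothelial adhesion gene Pecam1 758 to 812 at P10 and 521 to 721 at P120 (log2 fold change -0.43, SE 0.10, adjusted p = 0.00307). The lipid transporter Mfsd2a had 1356 to 1598 at P10 and 859.7 to 1136 at P120 (log2 fold change -0.60, SE 0.09, adjusted p = 0.000182). The pericyte receptor Pdgfrb fell by 0.31. Ly6a rose most, with 74.1 to 99.4 at P10 and 278 to 382 at P120 (1.97). Of 20 choroid plexus genes 15 rose and 1 fell (median 1.104). Transthyretin (Ttr), the carrier of thyroxine, had 12045, 10863, 14864, 10863 and 12889 at P10 and 22624, 31144, 26273 and 26582 at P120 (log2 fold change 1.12, SE 0.11, adjusted p = 5.83e-06). Klotho (Kl), a cofactor of fibroblast growth factor receptors, had 189 to 268 at P10 and 1022 to 1464 at P120 (log2 fold change 2.45, SE 0.13, adjusted p = 6.04e-08). The folate receptor Folr1 and the chloride channel protein Clic6 rose by 1.58 and 1.75. The identity factor Otx2 fell (-0.40, adjusted p = 0.0323, call lost without P10 replicate 1, 3 or 4 or WT-Veh replicate 1, at -0.39 to -0.25). Motile cilia genes were split, with 10 higher and 13 lower of 45. Foxj1, their master regulator, had 255 to 351 at P10 and 442 to 768 at P120 (0.95), Ccdc153 rose (0.55), Dnah5 fell (-0.64), Rsph1 did not pass (adjusted p = 0.345), and the extremes were Dnah11 (1.31) and Mia (-1.38).

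Antigen presentation and interferon response genes were higher for 29 of 46 and lower for 4 (median 0.57). The class I heavy chain H2-K1 had 426, 409.9, 418, 318 and 327 at P10 and 945, 1353, 1105 and 1147 at P120 (log2 fold change 1.58, SE 0.13, adjusted p = 1.14e-06). H2-D1 had 1331 to 1528 at P10 and 1836 to 3242 at P120 (log2 fold change 0.89, SE 0.14, adjusted p = 0.000265), and their partner beta-2-microglobulin (B2m) had 919 to 1099 at P10 and 1435 to 1803 at P120 (log2 fold change 0.61, SE 0.08, adjusted p = 7.94e-05). The class I genes are close copies of each other, so reads may be divided among them with error. Ifit3 rose most, with 44.3 to 62.6 at P10 and 230.5 to 284 at P120 (2.15), and Ifi44 fell most from a low level (-1.13).

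Genes with other cell types as their main source were also checked. Of 25 globin and erythroid genes, 13 were in the table and 12 were tested, and 3 rose and 4 fell (3 and 7 without WT-Veh replicate 4). The globin gene Hba-a1 had 2424 to 3114 at P10 and 1441 to 2417 at P120 (-0.56). Hbb-bs had 3980.3 to 4878 at P10 and 2594 to 4876 at P120 (adjusted p = 0.114, passing without WT-Veh replicate 4, at -0.46), and both values are uncertain because each gene has a near-identical copy. Alas2 of heme synthesis did not pass (adjusted p = 0.17, passing without WT-Veh replicate 4, at -0.81). The band 3 gene Slc4a1 was at most 73.4 (-1.18, adjusted p = 0.0494, call lost without P10 replicate 1, 2 or 3 or WT-Veh replicate 1 or 3, at -1.22 to -0.81). Ank1, which Purkinje and granule neurons also express, rose most (1.87). The summed level of the blood list was 32487 to 35394 at P10 and 33824 to 48875 at P120. Of 13 pituitary genes 7 were in the table and 4 were tested. Their summed level was 131 to 262 at P10, 1012 in WT-Veh replicate 3 and 173 to 261 in the other WT-Veh libraries. Pomc alone passed (34.1 to 83.1 at P10 and 87.3 to 208 at P120, 1.12), and Gh, at 0, 0, 31.6, 0 and 1.87 at P10 and 5.999, 599.6, 32.8 and 0 at P120, did not (adjusted p = 0.135, passing without WT-Veh replicate 5, at 4.396). Of 19 retina and skeletal muscle genes 10 were tested, with 1 higher and 2 lower and a summed level of 479 to 614 at P10 and 408 to 652 at P120. The myosin light chain Mylpf rose (0.95) and the myosin heavy chain Myh8 fell most (-1.62). The part of these tissues in other results was not tested.

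Of 45 imprinted genes, which are expressed from 1 parental copy, 22 fell and 10 rose. The noncoding H19 had 517, 363, 309, 379 and 286 at P10 and 9.103, 24.1, 24.8 and 30.5 at P120 (log2 fold change -4.09, SE 0.30, adjusted p = 6.04e-07). Its neighbour Igf2, which meninges and choroid plexus express, had 5411 to 6593 at P10 and 2334 to 4475 at P120 (log2 fold change -0.89, SE 0.15, adjusted p = 0.000357). The zinc finger gene Plagl1 fell by 0.81. Dlk1 rose, with 409.9 to 497 at P10 and 948 to 1336 at P120 (log2 fold change 1.34, SE 0.11, adjusted p = 1.17e-06), as did Dio3 (1.53), the deiodinase that inactivates thyroid hormone, from a low level. In the thyroid hormone list 7 rose and 7 fell of 19. Dio2, which activates the hormone in astrocytes, had 2028 to 3004 at P10 and 911 to 1992 at P120 (log2 fold change -0.77, SE 0.20, adjusted p = 0.00525). Klf9 fell by 0.31 (call lost without P10 replicate 1, 2 or 5 or WT-Veh replicate 3 or 4, at -0.31 to -0.20). The corepressor Hr and the receptor Thrb did not pass (adjusted p = 0.712 and 0.858). Aldh1a3 fell most (-1.76). Of 35 developmentally regulated RNA-binding protein genes, 17 fell and 4 rose (17 and 7 without WT-Veh replicate 3). Lin28b, Igf2bp3 and Ptbp1 did not pass (adjusted p = 0.273, 0.67 and 0.801). Igf2bp2 fell most, with 72.7 to 129 at P10 and 18.2 to 40.8 at P120 (-1.96). Cpeb1, which controls polyadenylation at synapses, rose most, with 639 to 736 at P10 and 1763 to 2508 at P120 (1.61). Igf2bp1 was under the minimum mean and was not tested.

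Arid1b itself had 3271, 3281, 3292, 3309 and 3164 at P10 and 3171, 3036, 3224 and 3229 at P120 (log2 fold change -0.04, SE 0.05, adjusted p = 0.498). Of 31 BAF subunit genes 5 rose and 10 fell, none by 2-fold or more. Actl6b, the neuronal actin-like subunit, had 2852 to 3072 at P10 and 2078 to 2426 at P120 (log2 fold change -0.41, SE 0.07, adjusted p = 0.000242). Its counterpart Actl6a had 373 to 489 at P10 and 378 to 447 at P120 (adjusted p = 0.494) and Phf10 1695 to 1922 at P10 and 1426 to 1770.5 at P120 (adjusted p = 0.117, passing without WT-Veh replicate 1, at -0.19). Bcl7b rose most (0.86) and Pbrm1, of the related PBAF complex, fell most (-0.74). Among 22 genes that write, remove or read DNA methylation, 6 rose and 8 fell. Dnmt3a, which deposits the non-CG methylation that neurons gain after birth, had 13923, 14118, 14029, 13896 and 13832 at P10 and 4260.4, 5009, 4590.1 and 4483 at P120 (log2 fold change -1.61, SE 0.06, adjusted p = 7.67e-09). Tet1, which oxidizes methylcytosine, had 2288 to 2850.5 at P10 and 369 to 606 at P120 (log2 fold change -2.34, SE 0.13, adjusted p = 9.78e-08). Uhrf1, which guides maintenance methylation in dividing cells, had 246 to 504 at P10 and 33.6 to 42.1 at P120 (log2 fold change -3.37, SE 0.19, adjusted p = 9.11e-08). Dnmt1, the maintenance enzyme, had 2706 to 3130.0 at P10 and 2315 to 3056 at P120 and did not pass (adjusted p = 0.387). Zbtb4 rose most (1.38).

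Energy genes rose more often than they fell. In glycolysis, creatine, lactate and ion pump genes 28 of 40 were higher and 6 lower (median 0.53). Aldolase C (Aldoc), of astrocytes and Purkinje cells, had 12102, 13373, 12779.9, 11058 and 15789.8 at P10 and 31347, 52506, 54293 and 44493 at P120 (log2 fold change 1.79, SE 0.15, adjusted p = 1.9e-06). Phosphofructokinase Pfkm had 8739 to 9436 at P10 and 14521 to 19525 at P120 (log2 fold change 0.89, SE 0.08, adjusted p = 3.48e-06). Mitochondrial creatine kinase Ckmt1 rose by 0.48. Slc16a7, the neuronal lactate transporter, fell most (-1.54). Of 81 nuclear oxidative phosphorylation genes 40 rose and 8 fell (median 0.24). Without WT-Veh replicate 1 the counts were 51 and 7. The complex IV gene Cox4i1 was at 9345 to 10096 at P10 and 13444 to 17737 at P120 (0.66) and Sdha rose by 0.55, while Ndufs1 (adjusted p = 0.0851, passing without WT-Veh replicate 5, at -0.19) and Atp5b (adjusted p = 0.583) did not pass. The extremes, Cox8b (2.15) and Cox6a2 (-0.91), are isoforms known from muscle and were at low levels. Of 13 genes of the mitochondrial genome 5 rose and 2 fell. The cytochrome oxidase gene mt-Co1 had 386764 to 448522 at P10 and 531723 to 698883 at P120 (0.54). The ATP synthase gene mt-Atp6 had 14809 to 27172 at P10 and 35398 to 55010.4 at P120 (1.02). Its neighbour mt-Co2 rose most, with 29637, 31220.1, 15163, 38748 and 13015 at P10 and 109825, 80005, 123681 and 120772 at P120 (log2 fold change 2.19, SE 0.29, adjusted p = 6.51e-05), and was already uneven within P10. The genes mt-Nd1 (adjusted p = 0.126, passing without WT-Veh replicate 4, at -0.32) and mt-Cytb (adjusted p = 0.272) did not pass. Furthermore, mt-Nd4l, which overlaps mt-Nd4, fell (-0.54, adjusted p = 0.0335, call lost without P10 replicate 2, 4 or 5, at -0.53 to -0.46). These genes are transcribed as long precursors. Of 82 ribosomal protein genes 36 rose and 20 fell (median 0.18), with Rpl13a at 0.77, Rps27a at 0.59, Rps6 at 0.22 (call lost without WT-Veh replicate 4, at 0.19) and Rpl3 at 0.20. The extremes were Rps21 (1.66) and Rpl5 (-1.08). Ribosomal protein genes have many processed pseudogenes, so single values are uncertain.

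Serotonin genes were few and mixed, with 4 higher and 5 lower of 22. Tph2, the enzyme of serotonin synthesis in the raphe nuclei of the hindbrain, had 194, 175, 202, 180.2 and 221 at P10 and 71.5, 271, 341 and 308 at P120 (adjusted p = 0.777), and without WT-Veh replicate 1 its log2 fold change was 0.65 (adjusted p = 0.000575). The transporter Slc6a4 had 231 to 287 at P10 and 56.1 to 393 at P120 (adjusted p = 0.536), and 0.28 without replicate 1 (adjusted p = 0.129). The receptor Htr1a had 483 to 504 at P10 and 567 to 584 at P120 (log2 fold change 0.22, SE 0.07, adjusted p = 0.0159). Htr2c, which the choroid plexus also expresses, had 2357 to 2627 at P10 and 1563 to 2107 at P120 (log2 fold change -0.40, SE 0.09, adjusted p = 0.00232). Gata2 rose most (1.13) and Maoa, a monoamine oxidase, fell most (-0.75). Without WT-Veh replicate 1, 7 genes of the list were higher and 7 lower.

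Among the genes that rose furthest, after Etnppl, was Igfn1, an immunoglobulin and fibronectin domain protein, with 16.5, 31.01, 29.96, 18.5 and 42.5 at P10 and 1269, 683, 542 and 693 at P120 (log2 fold change 4.802, SE 0.30, adjusted p = 1.61e-07). Plin4, a coat protein of lipid droplets, had 20.3 to 36.8 at P10 and 519 to 873 at P120 (log2 fold change 4.54, SE 0.21, adjusted p = 2.74e-08). The heat shock gene Hspa1b had 101, 113, 133, 107 and 137 at P10 and 1761, 2583, 2610.0 and 2978 at P120 (log2 fold change 4.37, SE 0.15, adjusted p = 7.55e-09). Its near-identical copy Hspa1a, named beside it after its values were seen, had 173 to 245 at P10 and 1501 to 2211 at P120 (3.14), so that the division of reads between the copies is uncertain. Hsf4, a heat shock transcription factor, had 36.2 to 59.7 at P10 and 624 to 747 at P120 (log2 fold change 3.84, SE 0.16, adjusted p = 1.38e-08). The netrin gene Ntn5 had 6.01 to 15.3 at P10 and 142 to 181 at P120 (log2 fold change 3.93, SE 0.24, adjusted p = 1.46e-07). Dao, which degrades D-serine in hindbrain astrocytes, had 20.6 to 31.7 at P10 and 184 to 635 at P120 (log2 fold change 3.91, SE 0.31, adjusted p = 1.07e-06), with WT-Veh replicate 1 lowest among the P120 libraries. Sfrp5, a secreted Wnt antagonist, rose by 3.68 and BC030499 by 3.83. Gm20458, annotated across Dbndd2 and Sys1 on the same strand and hence uncertain, had 0 to 36.3 at P10 and 131 to 488 at P120 (4.402, and 3.52 without P10 replicate 2). Of the genes that fell furthest, Prnd, a prion-like protein of developing vessels, had 163 to 203 at P10 and 0 to 13.9 at P120 (log2 fold change -5.33, SE 0.62, adjusted p = 2.23e-05), and -4.61 without WT-Veh replicate 5. Plin4, Ntn5 and Draxin overlap genes on the other strand (Hdgfl2, Sec1 and Mad2l2), and the reads of such partners cannot be told apart where strand is not kept.

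**Figure D5:**
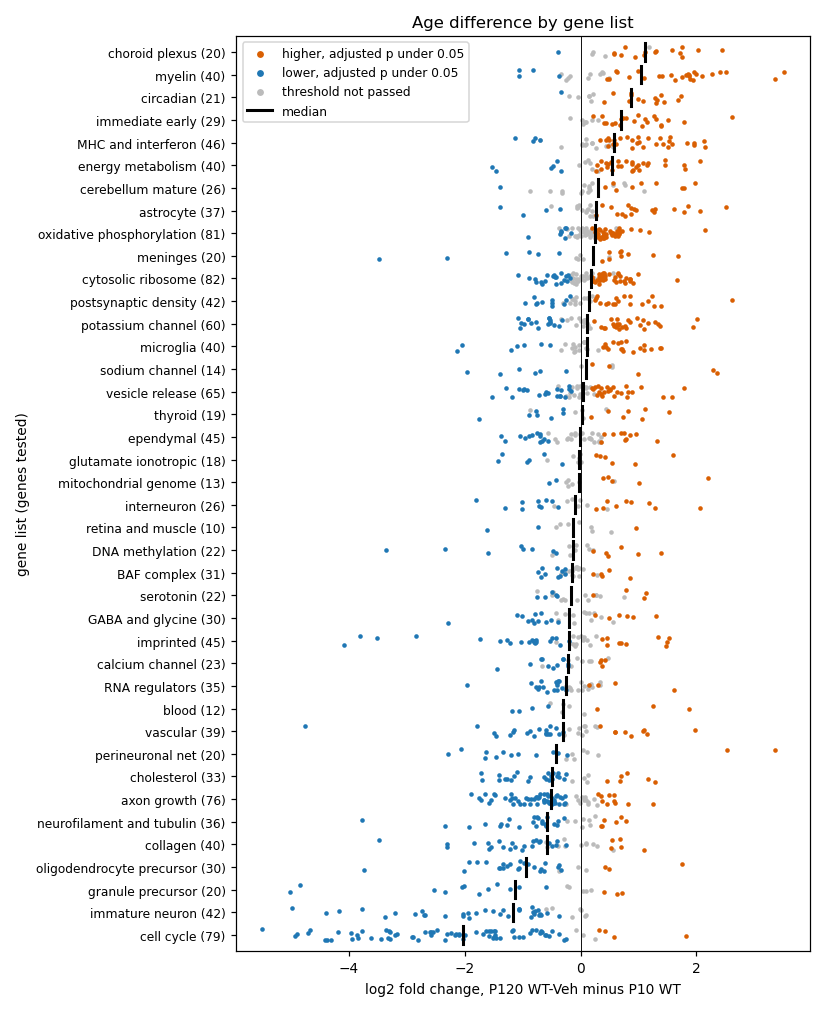
Log2 fold change of P120 WT-Veh over P10 WT (horizontal axis) for each tested gene of 40 gene lists with at least 10 tested genes, ordered by median (black bars), with genes that were higher in orange, lower in blue and not past the threshold in grey. The medians run from -2.03 for cell cycle genes to 1.104 for choroid plexus genes.

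Called genes differed in sequence properties from the rest. Median GC content of the longest transcript was 53.5% for genes at least 2-fold higher, 47.6% for genes at least 2-fold lower and 49.6% for all, and median transcript length was 2608, 3361 and 3183 bases. Across genes, which are not independent replicates, the log2 fold change correlated with GC content (Pearson r = 0.229 over 17925 genes), and the median rose from -0.30 in the decile of lowest GC to 0.26 in that of highest GC. The libraries differed in this too, since the deviation of a library from its group mean correlated with GC at 0.50 in WT-Veh replicate 3, -0.26 in replicate 1 and -0.33 in replicate 5, and between -0.033 and 0.030 in the P10 libraries. A correction for GC content and length was then made in each library. Of the 2531 genes changed at least 2-fold before it, 2500 kept their direction and an adjusted p below 0.05 (limma). The split of calls after it was 5553 higher and 4814 lower. At least 2-fold higher were 1067 genes and at least 2-fold lower 1269, so part of the 2531 no longer met the 2-fold rule. By chromosome, 78 of 573 tested genes on X (13.6%) were at least 2-fold lower and 15 (2.62%) at least 2-fold higher, against 7.79% and 6.32% of all genes. X genes were low in GC (median 45.8%), and after the correction 60 (10.5%) were lower and 14 (2.44%) higher, against 7.08% and 5.95% of all.

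The same age comparison was made in HT mice with a heterozygous deletion of Arid1b exon 5, 5 at P10 and 4 at P120 from the vehicle arm, which share no library with the WT comparison. HT-Veh replicate 2 was left out because its Arid1b value of 3361 went against its label, while the other 4 HT-Veh libraries held 2342, 1973, 2480.4 and 2227 and the 5 P10 HT libraries 2162, 2334, 2246, 2248 and 2180. Of 18015 genes tested, 4130 (22.9%) were higher and 4091 (22.7%) were lower at P120. Among 2482 genes changed at least 2-fold in WT and also tested in HT, 2473 (99.6%) had the same sign in HT and 2292 (92.3%) passed the threshold there. The log2 fold changes of 17731 genes correlated at Pearson r = 0.914, as a description across genes. The difference between the age changes of HT and WT was tested in all 18 libraries. None of 17969 genes passed (limma, lowest adjusted p = 0.636), with 613 genes (3.41%) at an unadjusted p below 0.05, and the median SE of the difference was 0.23 on the log2 scale. The 5 genes of lowest p were Galr1, Gm9762, Nr4a3, Myct1 and 1700012B09Rik. Galr1, a galanin receptor, fell by 2.26 in WT and by 1.11 in HT (difference 1.15, SE 0.23). Nr4a3, an immediate early gene, was at 0.02 in WT and -0.75 in HT (difference -0.77, SE 0.16), and neither gene passed (adjusted p = 0.636 for both). Gm9762 passed without HT-Veh replicate 3 alone (difference -6.82, adjusted p = 0.00095).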

How the data were processed

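Poly-A RNA of whole brains was sequenced by the authors in paired-end reads on an Illumina NovaSeq. Transcript abundance was estimated with Salmon (1.1.0) on GRCm38 with GC bias correction, imported with tximport and normalized with DESeq2 (1.30.1), according to the methods and the submitters' processing notes. The annotation release was not given in the sources used here. The deposited values are signals on a linear scale, normalized read counts that need not be whole, on 1 scale for all 30 libraries. Raw depth cannot be read from them, so no counting interval is given.

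Values of the 9 libraries were transformed to log2(value + 1), which understates changes of low genes, and genes with a mean of at least 10 were fitted with limma (3.58.1, R 4.3.3) with an intensity trend and 2-sided tests, adjusted by Benjamini-Hochberg over all tested genes at 0.05. The script was tested on simulated data. Gene IDs were matched to symbols for 19722 of 19737 genes (99.9%). Each library is 1 mouse according to the methods, and p-values measure the spread between these samples. The fit held 1 variance per gene for both ages, although the SD was larger at P120 for 79.0% of genes. No fit with unequal variances was made. Vehicle was given to the dams, and the litter of each mouse was not given in the sources used here. WT-Veh replicate 2 was left out. Pair ratios were compared by exact permutation (scipy 1.17.1, Python 3.11.15).

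The members and gene lists were chosen with earlier results of these data known. Genes were named by rule: Arid1b, the 12 higher and 12 lower protein-coding genes with the largest change among those that passed, did not overlap and had a mean of at least 50, the first 4 genes of each list, the highest and lowest passing gene of each list, both genes of each pair and, for the difference between HT and WT, the 5 genes of lowest p. Alternatives covered scaling, pseudocount, filters, GC content, replicate block and libraries left out. Some named genes and a pair ratio are not reported here.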

Additional observations from a re-analysis of the deposited data

Results flagged for a closer look

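Within a group, a sample was singled out where its gap to the nearest other sample, divided by the group's range, exceeded Dixon's 95% critical value. Of 606 groups, 37 did, where chance gives about 1 in 20. P10 replicate 1 stood apart as the highest in Col1a1 (0.815), Igf2 (0.772), Slc4a1 (0.753), Lum (0.776), the collagen list (0.776) and the meningeal list (0.930) and as the lowest in Ifit3 (0.752). P10 replicate 2 stood apart as the highest in Dnah11 (0.735) and as the lowest in Sema3a (0.764). P10 replicate 3 stood apart as the highest in Cacna1c (0.730) and as the lowest in Thrb (0.734) and Cacna1d (0.965). P10 replicate 5 stood apart as the highest in Nes (0.894), Bcan (0.767), Dusp6 (0.748), the sodium channel list (0.742) and the perineuronal net list (0.909) and as the lowest in Arid1b (0.747). WT-Veh replicate 1 stood apart as the highest in Dlg3 (0.870) and as the lowest in Klk6 (0.847), Itpr1 (0.923), Neurod1 (0.933), Hapln2 (0.914), Glra1 (0.836), Tph2 (0.852), Vamp1/Vamp2 (0.908) and the mature cerebellum list (0.894). WT-Veh replicate 3 stood apart as the highest in Gpr17 (0.833), Pomc (0.947) and Ptbp1 (0.890) and as the lowest in Plagl1 (0.843) and Dpf1 (0.842). WT-Veh replicate 4 stood apart as the highest in Ccnb1 (0.911) and as the lowest in Ube2c (0.932). WT-Veh replicate 5 stood apart as the highest in Etnppl (0.881) and Ccdc153 (0.891) and as the lowest in Dbp (0.947). The cause was not tested.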

How the results depend on the processing

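The counts of 4998 higher and 5058 lower genes stayed within 1.5 times under every alternative tried: another pseudocount (0.1 or 5), no filter, a minimum mean of 100, median-of-ratios scaling, equal totals (4072 and 6241), no intensity trend, a GC content and length correction (5553 and 4814), all 5 WT-Veh libraries, 18 libraries in 1 fit, and 1 library left out (4573 to 5243 higher and 4549 to 5443 lower). With the last, 1055 to 1240 genes were at least 2-fold higher and 1283 to 1592 lower. A minimum mean of 100 left 681 and 738 such genes, fewer genes being tested. The number of genes that differed between HT and WT ran from 0 to 1 with 1 library left out. Leaving out the libraries of low hindbrain level together was added after the data were seen.

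Replicate numbers showed no clear pairing of the samples. Deviations of equal-numbered libraries from their group means correlated at 0.036, 0.029, 0.030 and 0.011. Those of libraries with unequal numbers correlated at -0.097 to 0.061. These values cannot exclude a small shared effect. With a replicate block on replicates 1, 3, 4 and 5, 4425 genes were higher and 4476 lower, and 5072 and 4346 with the correction added.

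Each pair ratio whose groups did not overlap stayed on its side of the threshold in all alternatives where the design could reach it. For 1 library left out this outcome was fixed in advance, because groups that do not overlap stay apart when a library is removed. With 1 library left out, ratios that crossed the threshold ran from 0.30 to 0.58 for Slc12a5/Slc12a2, -0.39 to -0.29 for Actl6b/Actl6a, 0.89 to 1.43 for Syt2/Syt4 and 0.22 to 0.52 for Nefh/Ina, and with all 5 WT-Veh libraries Actl6b/Actl6a was -0.25 (exact permutation p = 0.0714).

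Of 246 named genes tested, 198 passed, and 25 of these lost the call under an alternative without a change of sign. The median log2 fold change changed sign under an alternative for 10 of 41 lists (ependymal, GABA and glycine, glutamate receptor, mitochondrial, pituitary, retina and muscle, serotonin, sodium channel, thyroid and vesicle release). The log2 fold change of genes that had not passed changed sign as follows. With the GC content and length correction it was opposite for Nefh (-0.035), Bcan (-0.17), Syt1 (0.11), Syt4 (0.13), Actl6a (0.0102), Phf10 (0.21), Lin28b (0.19), Ptbp1 (-0.18) and Hr (-0.15), of which Bcan, Phf10 and Ptbp1 then passed (limma, adjusted p = 0.0122, 0.00694 and 0.0193). With this correction and a replicate block it was opposite for Nefh (-0.0085), Bcan (-0.18), Syt1 (0.12), Syt4 (0.13), Npas4 (-0.033), Ndufs1 (0.0037), Actl6a (0.024), Phf10 (0.21), Lin28b (0.21), Ptbp1 (-0.21) and Hr (-0.17). With the replicate block alone it was opposite for Shank1 (0.0061) and Igf2bp3 (-0.052). With equal totals it was opposite for Ptbp1 (-0.074), Hr (-0.064), Thrb (-0.073) and Nefl (-0.058). With all 5 WT-Veh libraries it was opposite for Syt1 (0.029), Shank1 (0.036), Sst (0.041), Tph2 (-0.12), Hr (-0.016) and Nefl (-6.3e-04). Without both libraries of low hindbrain level it was opposite for Gfap (0.0200), Slc6a4 (0.24), Atp5b (0.0065) and Thrb (-0.0702). The cause was not tested. With 1 library left out, the ranges of such genes were Ina -0.17 to 0.0055, Syt1 -0.11 to 0.061, Shank1 -0.0402 to 0.022, Sst -0.14 to 0.0053, Mog -0.026 to 0.27, Gfap -0.11 to 0.053, Tph2 -0.093 to 0.65, Slc6a4 -0.65 to 0.28, Igf2bp3 -0.052 to 0.29, Ptbp1 -0.059 to 0.064, Atp5b -0.12 to 0.022, Hr -0.0084 to 0.077, Thrb -0.0799 to 0.16 and Nefl -0.046 to 0.21.

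The group size limits which changes can pass. In simulated data for the age comparison (17936 genes), 75.5% of 200 genes changed by 1 on the log2 scale were recovered, with 13 false calls. For the difference between HT and WT (17969 genes), 51% were recovered, with 5 false calls. The simulated noise was independent between genes and had the same SD at both ages. In the data, the SD was larger at P120 for 79.0% of genes. Far fewer genes were changed in the age simulation than the 56.1% called in the data. The Benjamini-Hochberg threshold depends on this share, so 75.5% is not the recovery rate of the age comparison itself.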
